A study of Mus musculus with 23 samples.

Results

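The interferon-stimulated genes described here are 38 named genes whose transcription type I interferon is known to raise, chosen by symbol under a rule that uses no measured value, although the list was proposed with earlier results of these data known. Of the 38, 37 were found among the 22524 genes of the table that holds the vavCre libraries, and 38 among the 25700 genes of the table that holds the Spic_KO and CreERT2 libraries. Mx2 was not analysed in the first of these tables and is described in the second alone. Every member found passed the filter on low values, so 37 of 15130 tested genes and 38 of 16650 tested genes were members.

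Messenger RNA was sequenced from mouse macrophages of the C57BL/6 strain, with 1000 cells sorted by flow cytometry for each library. The 23 libraries form 8 groups. In 7-day-old pups, 3 wild-type and 3 vavCre libraries came from the spleen (RPM_d7_WT and RPM_d7_vavCre, red pulp macrophages), and 3 and 3 came from the bone marrow (BMM_d7_WT and BMM_d7_vavCre). Also at 7 days, 2 spleen libraries labelled Spic_KO had 3 controls of their own (RPM_d7_Spic_KO and RPM_d7_Spic_WT). In adults, 4 spleen libraries carried CreERT2 (RPM_TAM_CreERT2) and 2 were their controls (RPM_TAM_WT). vavCre is a Cre recombinase expressed from Vav gene sequences in blood-forming cells and their progeny, and is not restricted to macrophages. CreERT2 is a form of Cre that tamoxifen switches on, and the labels do not spell out TAM. The labels do not give the floxed gene, while the series text names Pparg deficiency in the cells that remain. Whether the sequenced vavCre and CreERT2 cells carried a deletion is not given by any label. No label says that replicates were separate animals, so the p-values measure the spread between these samples, which may be technical.

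Type I interferons bind a receptor on the cell surface, and the kinases behind it activate STAT proteins, which join IRF9 to form the complex ISGF3. ISGF3 binds the interferon-stimulated response element (ISRE) near the start of its target genes. The products of these genes detect viral nucleic acid, block the entry, translation or release of viruses, or feed back on the pathway, and macrophages are known to keep some of them on at rest.

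To show where this element lies in members that changed, the stretches around the ISRE-like matches are printed for 6 members called in vavCre or Spic_KO, and for Isg15 because its promoter carries several. The letters are RefSeq promoter sequence of the build GRCm38.p6, 5′ to 3′ in the direction of the gene. Capitals mark matches of GAAANNGAAA on either strand, and overlapping matches are joined.
Ifitm3 chr7:141010716-141010742, minus strand: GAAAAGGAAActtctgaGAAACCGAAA
Bst2 chr8:71537562-71537627, minus strand: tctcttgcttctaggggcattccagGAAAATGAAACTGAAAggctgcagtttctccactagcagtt
Gbp7 chr3:142530258-142530317, plus strand: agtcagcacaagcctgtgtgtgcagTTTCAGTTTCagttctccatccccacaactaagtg
Ifit3 chr19:34583348-34583441, plus strand: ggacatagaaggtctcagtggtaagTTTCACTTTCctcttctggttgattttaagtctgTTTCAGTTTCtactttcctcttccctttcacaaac
Oas1a chr5:120907526-120907570, minus strand: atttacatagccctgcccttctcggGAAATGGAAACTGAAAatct
Oas3 chr5:120777700-120777759, minus strand: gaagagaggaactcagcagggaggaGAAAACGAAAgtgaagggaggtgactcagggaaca
Isg15 chr4:156200850-156200921, minus strand: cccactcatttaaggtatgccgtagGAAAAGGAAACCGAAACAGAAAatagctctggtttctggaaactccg
In Ifitm3 the 2 matches lie just after the annotated start, and in the others the capitals lie before it, from 20 bases upstream in Oas1a to 156 in Ifit3. In Bst2, Oas1a and Isg15 the matches overlap each other.

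RefSeq promoters, from 250 bases before to 50 bases after the start, were found for 28 of the 38 members. A match of GAAANNGAAA on either strand was present in 17 of the 28 (60.7%), against 3.99% of 27025 genes with a promoter entry. TTCNNNGAA, the core of the gamma-activated site, was present in 9 of the 28 (32.1%), against 9.55% of the genes, and its matches can overlap those of the other motif. Isg20, Ifi44 and Oasl2, which were called in the comparisons below, held no GAAANNGAAA in these windows. A match is a description of letters and not a measured binding site.

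The values are normalised read counts and compare only within a table. Reads recovered per library ran from 4.26 to 21.7 M in the first table and from 0.693 to 6.29 M in the other, with the CreERT2 libraries the shallowest at 0.693 to 1.67 M. Spic itself was 931 and 1236 in the Spic_KO libraries against 1993 to 3110 in their controls, lower but not absent, and the labels do not say which part of the gene was removed. Pparg RNA was higher, without overlap, in all 3 Cre groups, at 2496 to 4002 against 1550 to 2124 in vavCre spleen, 1813 to 2972 against 1601 to 1703 in vavCre marrow and 182 to 261 against 92.3 to 168 in CreERT2. No label says which exons a deletion would leave, so these levels do not check the genotype. All 10 macrophage markers were above 0 in every library.

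Ifitm3, Bst2 and Gbp7 rose in vavCre macrophages of spleen and marrow, by 1.20 to 2.04 on the log2 scale, and Ifit3 fell by 5.03 on the log2 scale (SE 0.69, limma adjusted p = 0.000194) in Spic_KO. A gene is said to have risen or fallen, or to be called, when limma gave an adjusted p under 0.05 (Benjamini-Hochberg, over all genes tested), on log2(value + 1), a scale that understates changes of low genes. In vavCre spleen 6 of 37 members rose and 1 fell, where 5.52% of all genes tested were called. In vavCre marrow 3 rose and none fell, where 7.81% of all genes were called. There 10 of 37 members had an unadjusted p under 0.05, against 3112 of 15130 genes. On recovered reads edgeR called 4 members and 1023 of all genes in marrow, and DESeq2 called 6 members and 1569 of all genes. In Spic_KO none rose and 8 of 38 fell, where 3.95% of all genes were called. By edgeR on recovered reads 1 member, Gbp7, rose there and 7 fell, where 949 of 16650 genes were called. The shares of members called were 7 of 37, 3 of 37 and 8 of 38 in the 3 comparisons, and the marrow share is close to its background.

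The direction of most members differed between vavCre and Spic_KO. Of 37 members 29 had a positive fitted change in vavCre spleen and 29 in vavCre marrow, with medians of 0.49 and 0.42 on the log2 scale, where the medians over all genes were -0.02 and -0.04. In Spic_KO 29 of 38 were negative, with a median of -0.94 against 0 over all genes. The values of the groups did not overlap for 10 members in vavCre spleen (8 higher, 2 lower), for 10 in vavCre marrow (9 higher, 1 lower) and for 21 in Spic_KO (2 higher, 19 lower). Over all genes 24.0%, 19.8% and 34.2% did not overlap in these 3 comparisons.

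**Figure D1:**
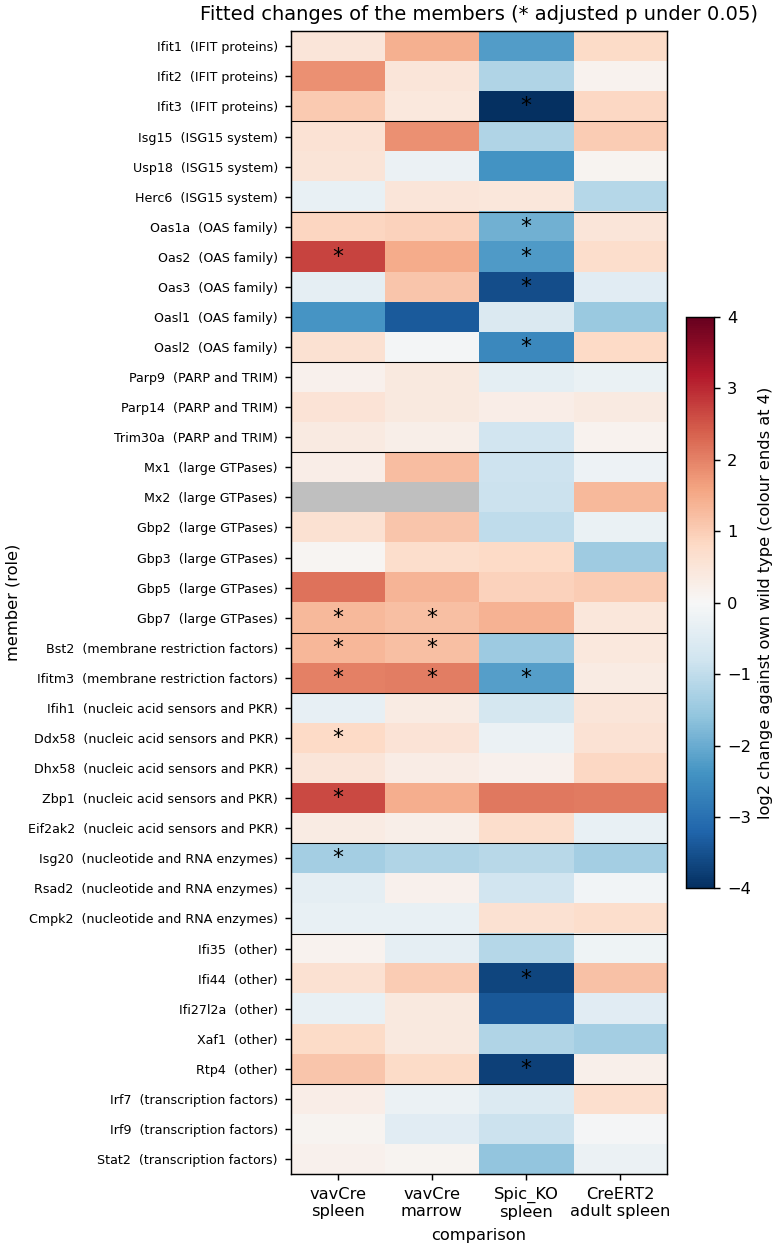
Fitted log2 change of each member (rows, by role) against its own wild type in 4 comparisons (columns), red higher and blue lower, with colour ending at 4 in either direction. Stars mark limma adjusted p under 0.05, and grey marks Mx2, not analysed in the first table. Ifitm3, Bst2 and Gbp7 carry stars in both vavCre columns, and the 8 stars of Spic_KO all stand on blue cells.

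The transcription factors of the pathway did not pass the test in any comparison. Irf9, the DNA-binding part of ISGF3 and the factor with the highest mean in the first table, read 950.5, 568 and 941 in wild-type spleen, 1157, 774 and 715 in vavCre spleen, 973, 692 and 692 in wild-type marrow and 766, 649.7 and 364 in vavCre marrow. In the second table it read 144, 116 and 134 in Spic_WT, 109 and 46.05 in Spic_KO, 212 and 175 in the adult controls and 152, 175, 217 and 203 in CreERT2. The values of Irf9 in Spic_KO lay below all 3 controls, with a fitted change of -0.87 ± 0.39 (SE), adjusted p = 0.235. Irf7, which amplifies interferon production, read 935, 324 and 559.9 in wild-type spleen, 1079, 640.1 and 419.7 in vavCre spleen, 919, 383 and 484 in wild-type marrow and 481, 656 and 326 in vavCre marrow. In the other table Irf7 read 95.04, 67.3 and 106 in Spic_WT, 50.1 and 72.4 in Spic_KO, 40.8 and 69.5 in the adult controls and 59.1, 68.7, 117 and 108 in CreERT2. Its groups overlapped in all 4 genotype comparisons. Stat2, a subunit of ISGF3, was 54.6 and 16.6 in Spic_KO against 72.5, 97.4 and 112 in its controls, without overlap (-1.58 ± 0.58 (SE), adjusted p = 0.138).

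The membrane restriction factors were the group that rose in full in vavCre. Ifitm3, which blocks the fusion of viruses in endosomes, read 662, 410.5 and 338 in wild-type spleen and 2035, 1881 and 1645 in vavCre spleen. Marrow gave 742, 489 and 259 in wild type and 1788, 2159 and 1709 in vavCre. All vavCre values lay above all wild-type values in both tissues, with log2 changes of 2.03 ± 0.30 (SE), adjusted p = 0.000183 in spleen and 2.04 ± 0.30 (SE), adjusted p = 0.000171 in marrow, by limma. In Spic_KO Ifitm3 was 27.03 and 51.7 against 134, 177 and 228, and it fell by 2.20 on the log2 scale (SE 0.38, limma adjusted p = 0.00171). Adult libraries read 275 and 578 in controls and 454, 421, 577 and 579 in CreERT2, and overlapped. Leaving out any 1 library left all 3 calls of Ifitm3 in place, with an adjusted p of at most 0.0136. Of its 50-base words, 10% also occur in other transcripts, Ifitm1 and Ifitm2 among them, so part of its reads may not be its own.

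Bst2 (tetherin), which holds budding viruses at the cell surface, read 1251, 829 and 814 in wild-type spleen and 3318, 2395 and 1683 in vavCre spleen, with 1050, 1085 and 858 in wild-type marrow and 2365, 2574 and 1962 in vavCre marrow. The vavCre values were all higher, with log2 changes of 1.33 ± 0.22 (SE), adjusted p = 0.000752 in spleen and 1.20 ± 0.22 (SE), adjusted p = 0.00186 in marrow, by limma, and both calls held without any 1 library. In Spic_KO Bst2 read 41.05 and 36.7 against 123, 103 and 100.3 in its controls. These groups did not overlap, but the fitted change of -1.45 ± 0.43 (SE), adjusted p = 0.0608 missed the threshold. In adults it read 62.9 and 80.3 in controls and 90.9, 113, 78.1 and 104 in CreERT2.

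**Figure D2:**
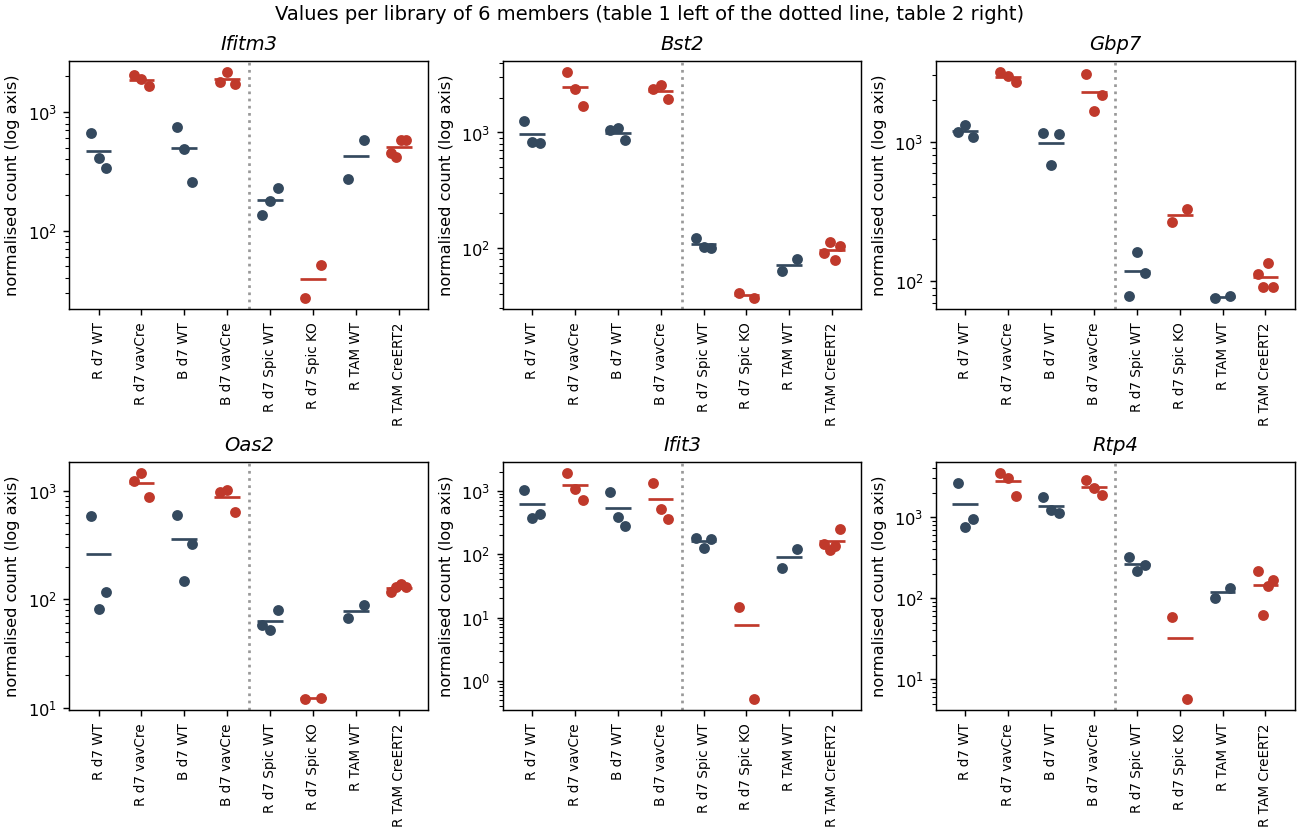
Normalised count on a log axis for each library (points) and group mean (lines) of Ifitm3, Bst2, Gbp7, Oas2, Ifit3 and Rtp4, wild type dark and the other genotypes red, R for spleen and B for marrow. The 3 vavCre points of Ifitm3 in spleen, 1645 to 2035, sit above the wild-type points at 338 to 662, while its 2 Spic_KO points are the lowest of the second table.

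The large GTPases, the guanylate-binding proteins and Mx proteins, were split. Gbp7, a guanylate-binding protein, read 1178, 1310 and 1088 in wild-type spleen and 3145, 2943 and 2686 in vavCre spleen, and in marrow 1150, 679 and 1134 in wild type and 3052, 1653 and 2148 in vavCre. The groups did not overlap in either tissue, and limma gave 1.30 ± 0.22 (SE), adjusted p = 0.000743 in spleen and 1.20 ± 0.22 (SE), adjusted p = 0.00147 in marrow, calls that held without any 1 library. Gbp7 was also higher in Spic_KO, at 267 and 330.1 against 78.4, 162 and 115, with 1.38 ± 0.40 (SE), adjusted p = 0.0559 by limma, which missed the threshold, and an adjusted p of 0.0398 by edgeR, which did not. Adult values were 75.9 and 78.5 in controls and 114, 90.8, 134 and 91.2 in CreERT2. Of the 50-base words of Gbp7, 12.7% are shared, with Gbp3, Gbp9 and Gbp11 among the holders, and a predicted gene model overlaps 11.3% of its exon bases.

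Gbp2 was higher in wild-type spleen, at 549, 578 and 612, than in wild-type marrow, at 231, 279.5 and 202, and limma called it (1.30 ± 0.35 (SE), adjusted p = 0.044). The call was lost without any 1 of RPM_d7_WT replicates 1, 2 and 3 or BMM_d7_WT replicates 1 and 3, with adjusted p from 0.106 to 0.163. Its vavCre values were 1698, 781 and 511 in spleen and 777, 360 and 482 in marrow. The marrow values lay above all those of wild type, but limma gave 1.12 ± 0.35 (SE), adjusted p = 0.0578, which missed the threshold. For the same change the adjusted p was 0.0468 by edgeR and 0.0136 by DESeq2. In Spic_KO the 2 libraries of Gbp2 disagreed, at 131 and 14.5, around controls at 75.6, 77.4 and 123, and adults read 101 and 171 in controls and 206, 46.5, 81.8 and 178 in CreERT2. The fitted changes of the remaining members of this group, Gbp3, Gbp5 and Mx1, were positive in both vavCre tissues and not called. Gbp5 did not overlap between genotypes in spleen (2.18 ± 0.69 (SE), adjusted p = 0.0788 by limma) and overlapped in marrow. For Gbp5 the adjusted p by DESeq2 was 0.0259 in spleen and 0.0384 in marrow, and by edgeR 0.0653 and 0.0824. For Mx1 in spleen the sign is that of limma alone, since edgeR and DESeq2 gave -0.07 and -0.06. In Spic_KO Gbp3 and Gbp5 had positive and Mx1 and Mx2 negative fitted changes, and none was called.

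The 2'-5'-oligoadenylate synthetases, which make the second messenger that switches on RNase L, had 4 of 5 members fall in Spic_KO, where 3.95% of all genes were called, and Oasl1, with 3 reads in the Spic_KO libraries, was not called. Oas2 read 57.6, 52.6 and 79.9 in Spic_WT and 12.01 and 12.4 in Spic_KO, and limma gave -2.26 ± 0.47 (SE), adjusted p = 0.00759. Oas1a read 129, 96 and 96.8 against 29.5 and 24.8, and Oasl2 read 69.01, 35.7 and 76.4 against 22.5 and 3.104. No library of Spic_KO reached any control library in these 3 genes, and limma gave -1.93 ± 0.53 (SE), adjusted p = 0.0414 for Oas1a and -2.57 ± 0.68 (SE), adjusted p = 0.0356 for Oasl2.

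Oas3 was near the limit of detection in Spic_KO, at 0 and 0.517 against 19.97, 6.31 and 19.1 in Spic_WT. A single read was recovered from both Spic_KO libraries, which gives a ratio of 58.5 with a 95% counting interval of 10.5 to 2309, and limma gave -3.56 ± 0.91 (SE), adjusted p = 0.0312. Oas2 lost its call without Spic_WT replicate 3 (adjusted p 0.0602), and Oas3 without Spic_WT replicate 1 or 3 or Spic_KO replicate 2 (0.0658 to 0.162). Without those same 3 libraries in turn Oasl2 reached 0.143 to 0.384, and Oas1a lost its call without any of the 3 controls or Spic_KO replicate 2 (0.107 to 0.19). Of the 50-base words of Oas1a, 57.6% also occur in Oas1g or Oas1b, so its level is uncertain. Oas1g itself was 46.9 to 50.1 in Spic_WT and 54.8 to 73.1 in Spic_KO.

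In vavCre Oas2 rose in spleen, from 580.1, 81.4 and 116 in wild type to 1227, 1440 and 879.8 in vavCre, by 2.70 on the log2 scale (SE 0.63, limma adjusted p = 0.0217). The wild-type libraries are spread widely, with replicate 1 far above the other 2. The call was lost without wild-type replicate 2 or 3 or vavCre replicate 1 or 2 (adjusted p 0.0743 to 0.107), edgeR gave 0.194 and DESeq2 0.042. In marrow Oas2 read 601, 147 and 321 in wild type and 963, 1019 and 632 in vavCre, without overlap but not called (1.48 ± 0.63 (SE), adjusted p = 0.197). Adult values of Oas2 were 66.96 and 89.3 in controls and 116, 131, 137 and 128 in CreERT2, again without overlap and not called (0.72 ± 0.44 (SE), adjusted p = 0.732).

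The other synthetases were not called in vavCre. Oas1a read 515, 200.3 and 324 in wild-type spleen, 994, 515 and 386 in vavCre spleen, 268, 237 and 262 in wild-type marrow and 519, 639 and 339.5 in vavCre marrow. Oasl2 read 264, 191 and 186 in wild-type spleen and 529, 366 and 172 in vavCre spleen, against 462, 319 and 244 in wild-type marrow and 498, 292 and 215 in vavCre marrow. Both genes overlapped between genotypes in spleen. Oas3 had the widest range of any member within a group, 278, 101 and 2.26 in vavCre marrow, where the lowest library held 1 read and the highest 133. Its other first-table values were 170.4, 88.1 and 33.3 in wild-type spleen, 89.6, 88.2 and 30.1 in vavCre spleen and 56.3, 5.26 and 25.1 in wild-type marrow. Oasl1, the next widest, read 25.8, 2.54 and 0 in vavCre spleen, 44.1, 21.6 and 11.9 in wild-type spleen, 16.1, 86.7 and 7.32 in wild-type marrow and 10.5, 0 and 0 in vavCre marrow. Both genes overlapped between genotypes in both tissues. In the second table Oasl1 read 0.253, 0.3504 and 7.12 in Spic_WT, 0 and 1.55 in Spic_KO, 12.2 and 3.62 in the adult controls and 5.68, 2.22, 1.88 and 0 in CreERT2. Oas1a read 58.8 and 44.1 in the adult controls and 44.3, 55.4, 136 and 78.3 in CreERT2. For Oas3 the values were 31.03 and 24.6 in the adult controls and 11.4, 15.5, 30.1 and 28.2 in CreERT2. Oasl2 was 39.2 and 63.7 in the adult controls and 119, 75.3, 114 and 59.1 in CreERT2. All 3 overlapped between the adult groups.

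The IFIT proteins bind foreign RNA ends and block their translation. Ifit3 had the largest fitted fall of the members in Spic_KO, from 182, 124 and 172 in Spic_WT to 14.5 and 0.517 in Spic_KO, and fell by 5.03 on the log2 scale (SE 0.69, limma adjusted p = 0.000194). The call held without any 1 library. Of its 50-base words 51.2% are shared with Ifit3b, so the 2 genes may share reads, and Ifit3b was 19.97 to 44.7 in Spic_WT and 0.517 to 24.0 in Spic_KO. Ifit1 and Ifit2 also lay below all their controls in Spic_KO, at 1.502 and 10.3 against 30.6, 16.8 and 27.2 for Ifit1 and 13.5 and 12.4 against 26.3, 28.4 and 39.5 for Ifit2, and neither was called. In the first table Ifit3 read 1040, 376 and 427 in wild-type spleen, 1874, 1076 and 728 in vavCre spleen, 939, 392.5 and 276 in wild-type marrow and 1325, 518 and 358 in vavCre marrow. All 3 IFIT genes had positive fitted changes in both tissues and none was called, and in spleen Ifit2 alone did not overlap between genotypes (1.83 ± 0.58 (SE), adjusted p = 0.0891). Adult Ifit3 read 60.4 and 122 in controls and 146, 115, 136 and 247 in CreERT2.

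Among the sensors of viral nucleic acid, Zbp1, which detects Z-form nucleic acid and triggers cell death, rose in vavCre spleen from 45.9, 40.7 and 21.9 to 425, 177 and 144, by 2.65 on the log2 scale (SE 0.61, limma adjusted p = 0.0125). Marrow values were 52.3, 24.5 and 47.03 in wild type and 228, 90.9 and 61.1 in vavCre, which did not overlap and were not called (1.44 ± 0.61 (SE), adjusted p = 0.184). The spleen call was lost without wild-type replicate 3 (adjusted p 0.0655) or vavCre replicate 1 (0.1). In the Spic comparison Zbp1 overlapped between the groups, at 13.4, 0 and 22.3 in Spic_WT, a wide range, and 15.5 and 53.8 in Spic_KO. In adults it read 7.35 and 3.98 in controls and 7.95, 28.8, 31.99 and 60.4 in CreERT2, without overlap and not called.

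Ddx58, which codes for the RNA sensor RIG-I, rose in vavCre spleen from 407, 409.7 and 384 to 722, 736 and 629.9, by 0.79 on the log2 scale (SE 0.22, limma adjusted p = 0.0361), and lost its call when any 1 of the 6 spleen libraries was left out (adjusted p 0.0685 to 0.137). Marrow gave 776, 536 and 554 in wild type and 798, 1115 and 801 in vavCre. Its second-table values were 105, 114 and 86.1 in Spic_WT, 92.6 and 79.2 in Spic_KO, 118 and 119 in the adult controls and 182, 128, 228 and 190.1 in CreERT2, overlapping in Spic_KO and not in adults. Ifih1 (MDA5), the sensor of long double-stranded RNA with the highest mean of this group, read 1258, 1094 and 862 in wild-type spleen, 967, 803 and 789 in vavCre spleen, 788, 382 and 614 in wild-type marrow and 952, 601 and 634 in vavCre marrow. In the second table Ifih1 read 175, 204 and 143 in Spic_WT, 116 and 96.2 in Spic_KO, 87.4 and 137 in the adult controls and 139.7, 142, 173 and 159 in CreERT2. It was not called in any comparison. Eif2ak2 (PKR), the kinase that halts translation, disagreed between the Spic_KO libraries, at 41.5 and 349 around controls at 74.6, 74.3 and 72.8.

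Rtp4 and Ifi44 fell in Spic_KO with Ifit3. Rtp4, a receptor-transporting protein that restricts RNA viruses, read 322, 216 and 257 in Spic_WT and 58.1 and 5.69 in Spic_KO, and fell by 3.72 on the log2 scale (SE 0.65, limma adjusted p = 0.00188). Ifi44, an antiviral protein of the cytoplasm, read 16.4, 13.7 and 13.9 against 0 and 0.517, with a single read recovered from both Spic_KO libraries, a ratio of 56.7 with a 95% counting interval of 10.2 to 2240, and limma gave -3.66 ± 0.75 (SE), adjusted p = 0.00718. Both calls held without any 1 library, though Rtp4 then reached an adjusted p of 0.0488 and Ifi44 of 0.0444. In the first table Rtp4 read 2641, 755 and 938 in wild-type spleen, 3444, 2987 and 1826 in vavCre spleen, 1750, 1212 and 1112 in wild-type marrow and 2859, 2265 and 1849 in vavCre marrow, with no overlap in marrow (0.78 ± 0.39 (SE), adjusted p = 0.287). Ifi44 read 86.4, 4.99 and 24.2 in wild-type spleen, 107, 50.9 and 7.14 in vavCre spleen, 2.01, 41.2 and 2.09 in wild-type marrow and 2.09, 32.7 and 29.4 in vavCre marrow, overlapping throughout. Rtp4 was 100.4 and 135 in the adult controls and 218, 62.05, 140.2 and 168 in CreERT2. Ifi44 was 26.9 and 37.98 in the adult controls and 115, 48.8, 62.1 and 83.5 in CreERT2. The adult groups did not overlap for Ifi44 and did for Rtp4. A neighbouring gene model covers 13.9% of the exon bases of Rtp4.

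Ifi27l2a, of the IFI27 family, differed between the wild-type tissues, at 782, 544 and 426 in spleen and 217, 207 and 188 in marrow, without overlap, with 1.47 ± 0.30 (SE), adjusted p = 0.00831 by limma. That call was lost without RPM_d7_WT replicate 1 (adjusted p 0.0663). Its vavCre values were 413, 584 and 409 in spleen and 297, 353 and 186 in marrow. The 2 Spic_KO libraries, 169.7 and 7.24, both lay below their controls at 252, 379 and 616 but differed widely from each other, and the change was not called (-3.38 ± 0.98 (SE), adjusted p = 0.0858). In adults Ifi27l2a read 203 and 522 in controls and 235, 119.7, 313 and 367 in CreERT2. Ifi35 and Xaf1 were not called in any comparison.

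Isg20, an exonuclease that degrades single-stranded RNA, was the single member that fell in vavCre. It read 1170, 1016 and 712 in wild-type spleen and 539.5, 303 and 311 in vavCre spleen, without overlap, with -1.35 ± 0.38 (SE), adjusted p = 0.0437 by limma. Marrow read 766, 422 and 472 in wild type and 354, 322 and 111 in vavCre, without overlap and not called (-1.19 ± 0.38 (SE), adjusted p = 0.0634). The spleen call was lost without any 1 of the wild-type libraries or vavCre replicates 2 and 3 (adjusted p 0.0515 to 0.183). Second-table values were 118, 135 and 138 in Spic_WT, 25.5 and 141 in Spic_KO, 21.2 and 48.8 in the adult controls and 29.5, 2.22, 18.8 and 14.1 in CreERT2. Rsad2 (viperin), which makes a chain-terminating nucleotide, had the highest mean of the enzymes, with 3404, 2630 and 1722 in wild-type spleen, 2062, 2351 and 1477 in vavCre spleen, 2723, 1700 and 1124 in wild-type marrow and 2696, 1894 and 1433 in vavCre marrow. In the other table Rsad2 read 257, 208 and 357 in Spic_WT, 119 and 208 in Spic_KO, 104 and 795 in the adult controls and 399, 197, 265 and 245 in CreERT2. Neither Rsad2 nor Cmpk2, its neighbour on chromosome 12, was called anywhere, and the sign of Cmpk2 in marrow differed between limma (-0.30) and edgeR (0.13).

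The ubiquitin-like modifier Isg15 was low throughout, and none of its system was called. Isg15 read 30.8, 14.1 and 15.1 in wild-type spleen, 38.7, 53.4 and 11.1 in vavCre spleen, 2.01, 8.76 and 2.09 in wild-type marrow and 31.4, 37.6 and 2.26 in vavCre marrow. In the second table it read 2.53, 5.61 and 4.21 in Spic_WT, 0 and 3.62 in Spic_KO, 0 and 5.43 in the adult controls and 6.82, 2.22, 4.704 and 3.85 in CreERT2. The lowest marrow library of vavCre held 1 read of Isg15. Herc6, the ligase that attaches ISG15 in mice, read 494, 530.2 and 466 in wild-type spleen, 395, 387 and 444 in vavCre spleen, 438, 349.5 and 278 in wild-type marrow and 749, 476 and 319 in vavCre marrow. Its second-table values were 40.95, 33.99 and 65.7 in Spic_WT, 44.5 and 86.9 in Spic_KO, 144 and 56.8 in the adult controls and 67.01, 44.3, 24.5 and 35.96 in CreERT2. Usp18, which removes ISG15 and dampens the receptor, was lower without overlap in Spic_KO and not called (-2.39 ± 0.99 (SE), adjusted p = 0.19).

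Trim30a, a TRIM protein that restrains NF-kappa-B signalling, had the highest mean of its group, with 3776, 2761 and 2186 in wild-type spleen, 3758, 4142 and 3183 in vavCre spleen, 4673, 2627 and 3287 in wild-type marrow and 5152, 3740 and 3485 in vavCre marrow. In Spic_KO it read 300.4 and 286, below all controls at 424, 677 and 440.1, and was not called (-0.77 ± 0.28 (SE), adjusted p = 0.136). Adults read 721 and 720.2 in controls and 948, 583, 752 and 960.5 in CreERT2. Parp9 and Parp14, ADP-ribosyltransferases, had fitted changes from 0.18 to 0.54 in vavCre and were not called.

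Set side by side, 22 of 37 members (59.5%) had a positive fitted change in vavCre spleen and a negative one in Spic_KO, where 23.4% of 13757 genes tested in both tables did. The pair of vavCre marrow and Spic_KO gave 21 of 37 (56.8%) against 23.9%. Positive in both vavCre tissues and negative in Spic_KO were 17 members, among them Ifitm3, Bst2, Oas2, Oas1a, the 3 IFIT genes, Rtp4, Mx1, Stat2 and Isg15. Ifitm3 and Oas2 were the members called in both vavCre spleen and Spic_KO, in opposite directions. Zbp1 and Gbp7 were among the members positive in both comparisons. The tables were normalised separately and have different controls, so the difference between the effects was not tested.

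**Figure D3:**
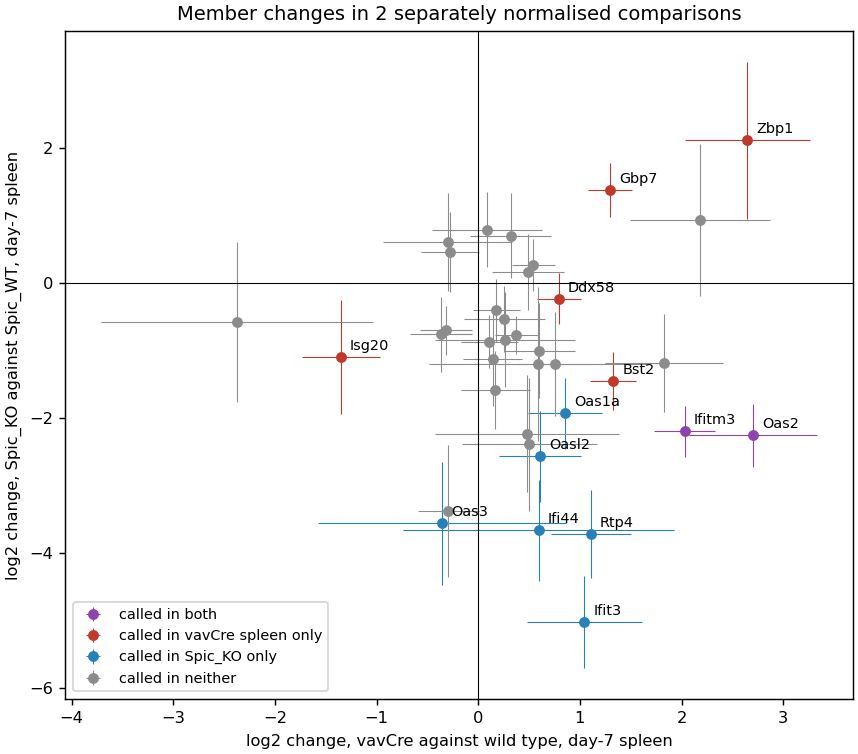
Fitted log2 change with its standard error (bars) in vavCre spleen (x axis) and in Spic_KO (y axis) for the 37 members in both tables, coloured by which comparison called them. Ifitm3 and Oas2, called in both, lie to the right of and below 0, where 22 of 37 members lie.

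The vavCre effect did not differ detectably between tissues for any member. Of 37 members limma called none, with 0.119% of all genes called, and edgeR and DESeq2 called none. No member had an unadjusted p under 0.05, where 935 of 15130 genes did. The change was positive in both tissues for 24 of 37 members (64.9%), against 28.5% of all genes. Between tissues, Ifi27l2a and Gbp2 were called in wild type, where 3.89% of all genes were called, and both were higher in spleen. In vavCre no member was called between tissues, where 3.50% of all genes were called, and edgeR and DESeq2 called none of the members. An unadjusted p under 0.05 was found for 5 of 37 members, against 2495 of 15130 genes.

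Adult CreERT2 libraries gave no call among the 38 members, with 0.144% of all genes called. Of the members 1 had an unadjusted p under 0.05, where 1244 of 16650 genes did, and edgeR and DESeq2 called none of the members. The median fitted change was 0.27 and 8 members did not overlap between the groups (6 higher, 2 lower), where 13.7% of all genes did not. DESeq2 moved the median of all genes by 0.11 in this comparison, and the median of the members to 0.36.

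The libraries of 1 group differed from each other across the members. In the first table, replicate 1 held the highest value of its group for 32 of 37 members in wild-type spleen, 23 in vavCre spleen, 28 in wild-type marrow and 28 in vavCre marrow, while over all genes replicate 1 was highest in 31.0 to 35.2%. The mean of log2(value + 1) over the members was 8.97, 8.18 and 8.01 in the 3 wild-type spleen libraries and 9.37, 9.05 and 8.31 in the 3 of vavCre. In marrow it was 8.46, 8.02 and 7.82 in wild type and 9.17, 8.64 and 7.91 in vavCre. The genotypes therefore overlap in this mean in both tissues: vavCre replicate 3 lies below wild-type replicate 1. In the second table the same mean was 5.86, 5.70 and 6.22 in Spic_WT and 4.92 and 4.74 in Spic_KO, without overlap. In the adult groups it was 5.72 and 6.01 in controls and 6.19, 5.72, 6.18 and 6.02 in CreERT2, which overlap. The median SD of the members on this scale exceeded that of all genes tested in all 4 groups of the first table, at 0.555 against 0.329 in wild-type spleen and 0.48 against 0.362 in vavCre spleen. It was 0.384 against 0.358 in Spic_WT and 0.605 against 0.639 in Spic_KO.

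**Figure D4:**
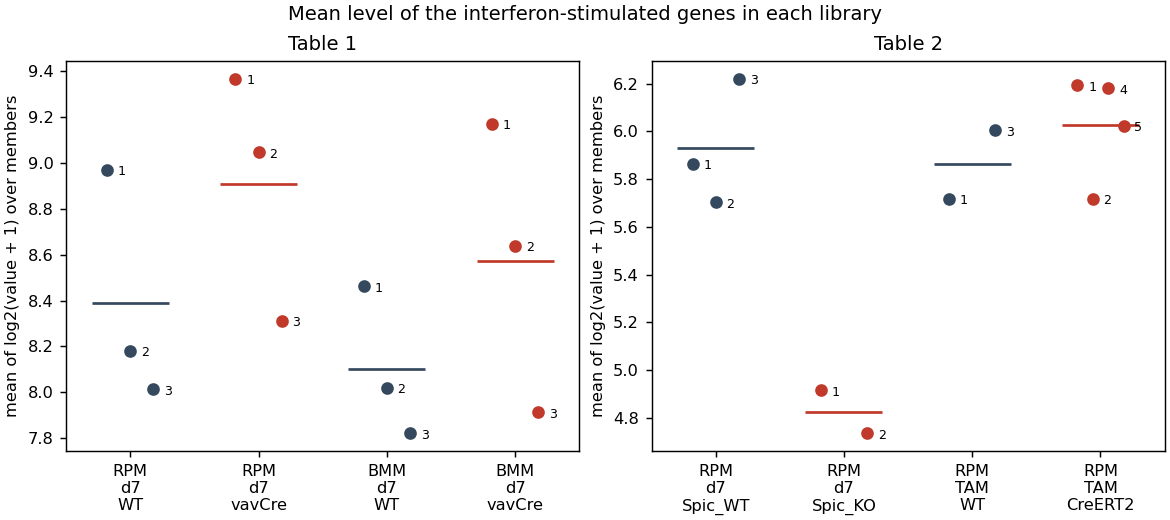
Mean of log2(value + 1) over the members for each library (points, with replicate number) and group (lines), in the 2 tables, whose scales do not compare. Replicate 1 is highest in each group of the first table, and both Spic_KO libraries, at 4.92 and 4.74, lie below the 3 controls.

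**Figure D5:**
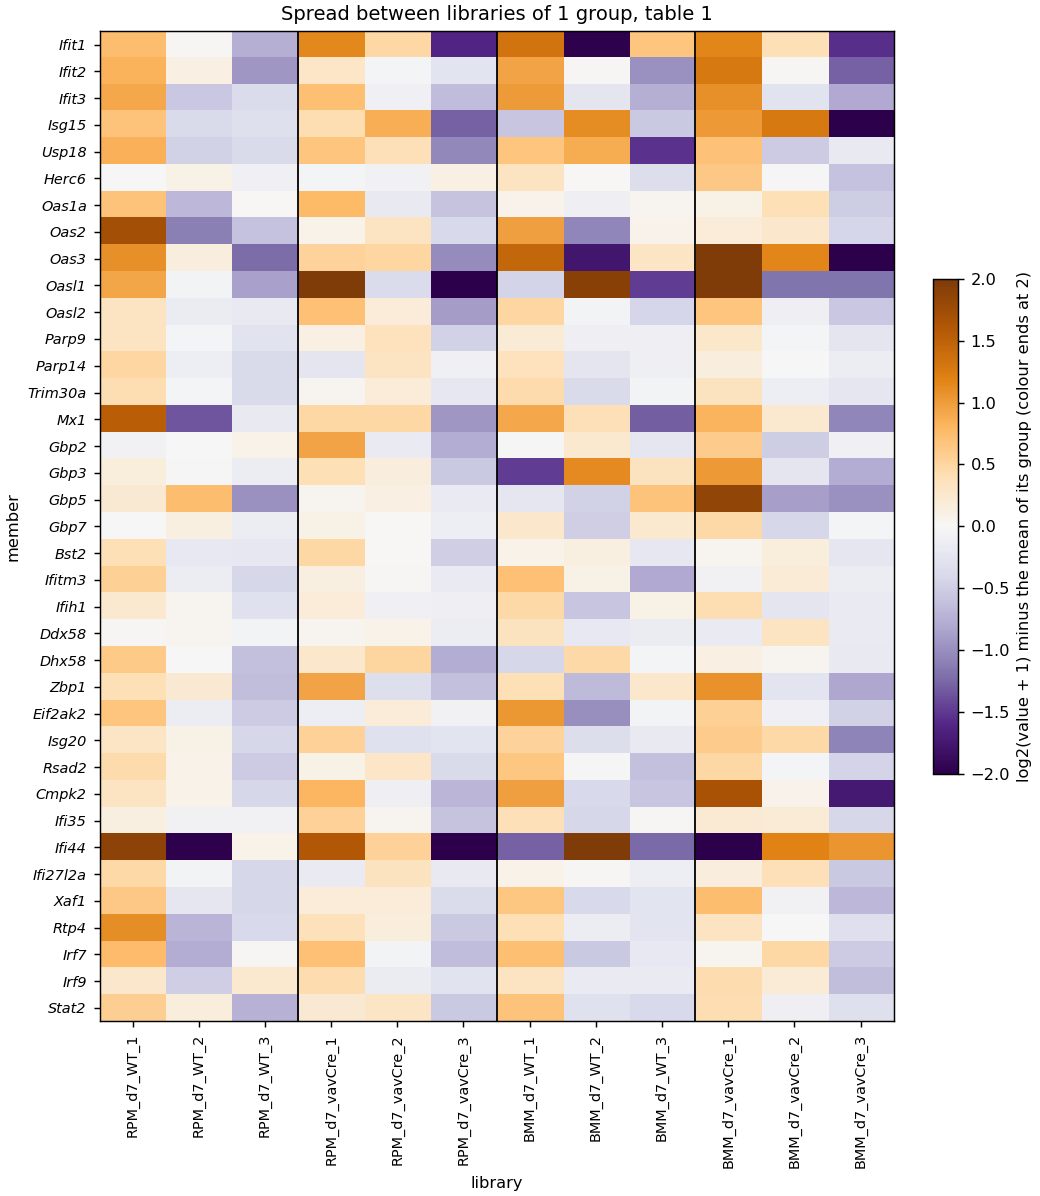
Log2(value + 1) of each member (rows) minus the mean of its group, for the 12 libraries of the first table (columns), orange above and purple below the group mean, with colour ending at 2. The replicate 1 columns are mostly orange, as in wild-type spleen, where 32 of 37 members are highest.

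Counts of calls moved with single libraries. In vavCre spleen the 7 calls became 4 without wild-type replicate 2, 3 without wild-type replicate 3, 4 without vavCre replicate 1 and 4 without vavCre replicate 2. In vavCre marrow the 3 became 5 without vavCre replicate 2. In Spic_KO the 8 became 5 without Spic_WT replicate 1, 4 without Spic_WT replicate 3, 5 without Spic_KO replicate 2 and 15 (2 higher, 13 lower) without Spic_KO replicate 1, a fit in which the lone Spic_KO library is assumed to vary like the other groups.

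Compared per kilobase of exon in wild-type spleen, the level of Ifi27l2a was highest, at 1262, followed by Bst2 at 1069, Trim30a at 707, Ifitm3 at 693, Rtp4 at 678 and Rsad2 at 596. The lowest were Ifi44 at 6.29 and Gbp5 at 5.90. Ifi27l2a also led in Spic_WT, at 898 per kilobase, and in the adult controls, at 783, followed by Ifitm3 in both.

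Few genes upstream of the members were called. Of 21 interferon genes, all in both tables, 17 were at 0 in every library of the first table and 11 in every library of the second. Ifnb1 had no read in either table, and Ifng had 40 reads, all in 1 library. Of 11 receptor and JAK-STAT genes, Ifnar1, a receptor chain, rose in vavCre marrow (0.79 ± 0.16 (SE), adjusted p = 0.00419), and no other was called in vavCre spleen, vavCre marrow or CreERT2. Of 16 tested genes that induce interferon, Ikbke, a kinase of IRF3, rose in vavCre spleen (1.21 ± 0.30 (SE), adjusted p = 0.0213) and marrow (1.35 ± 0.30 (SE), adjusted p = 0.00832), and Tlr8 fell in marrow (-1.25 ± 0.32 (SE), adjusted p = 0.0212). Of 13 negative regulators, Tfe3 rose in vavCre spleen, Ptpn6 in vavCre marrow and Nlrc3 in Spic_KO (4.28 ± 1.19 (SE), adjusted p = 0.0459). Several of these calls were lost without single libraries. Ikbke in spleen lost its call without wild-type replicate 2 or vavCre replicate 2 or 3 (0.0603 to 0.109), and Tlr8 without wild-type replicate 2 or 3 or vavCre replicate 1 of marrow (0.0654 to 0.0907). Tfe3 lost its call without any 1 of the 6 spleen libraries (0.0681 to 0.219), and Nlrc3 without any of the 3 controls or Spic_KO replicate 1 (0.124 to 0.276).

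Other targets of type I interferon outside the members gave 10 rises and no fall among 73 tested in vavCre spleen, 6 rises and 2 falls in vavCre marrow, and no rise and 6 falls among 74 in Spic_KO, with medians of 0.34, 0.27 and -0.29. Over all genes 5.52%, 7.81% and 3.95% were called in these comparisons, so the marrow count is not far above its background. Cxcl10, a chemokine for T cells, read 465, 365 and 465 in wild-type spleen and 3972, 3697 and 2910 in vavCre spleen (3.02 ± 0.27 (SE), adjusted p = 5.52e-07). Marrow gave 336, 372 and 216 in wild type and 4013, 3600 and 1716 in vavCre (3.28 ± 0.27 (SE), adjusted p = 2.15e-07). Ifitm2, Ly6e and Ccl12 rose in both tissues as well, with log2 changes of 1.67, 1.22 and 4.43 in spleen and 1.51, 1.33 and 2.66 in marrow. Among the falls in Spic_KO were Trim34a (-3.41 ± 0.62 (SE), adjusted p = 0.00253), Ifi204 (-1.72 ± 0.35 (SE), adjusted p = 0.00658) and Pnpt1 (-4.13 ± 0.86 (SE), adjusted p = 0.0079). Without Spic_KO replicate 2 these 3 calls were lost (Trim34a 0.0503, Ifi204 0.115, Pnpt1 0.085), and Pnpt1 was also lost without Spic_WT replicate 1 (0.0544). Ccl12 in marrow lost its call without vavCre replicate 1 (0.0604).

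Targets of interferon gamma gave 2 rises and 1 fall among 31 tested in vavCre spleen, 3 and 2 in marrow, and 1 and 8 among 33 in Spic_KO, where 5.52%, 7.81% and 3.95% of all genes were called. The spleen count is near its background. B2m, the light chain of MHC class I, rose in vavCre spleen (0.50 ± 0.09 (SE), adjusted p = 0.00205) and marrow (0.42 ± 0.09 (SE), adjusted p = 0.0089) and fell in Spic_KO, from 9049, 7498 and 10980 to 3177 and 2104 (-1.81 ± 0.27 (SE), adjusted p = 0.00046). Gbp2b went the other way in Spic_KO, at 187 and 289 against 0, 0 and 0.324, the single rise of this list there. Serpina3g had the smallest p of the list there and fell from 160.5, 88.3 and 236 to 6.51 and 4.14 (-4.60 ± 0.45 (SE), adjusted p = 4.73e-06), and Igtp fell by 3.39 on the log2 scale (SE 0.65, limma adjusted p = 0.00401). Without Spic_KO replicate 2 Igtp reached 0.074, and B2m in marrow lost its call without wild-type replicate 1 (0.0537) or vavCre replicate 1 (0.0573). Ubd, a ubiquitin-like gene, fell in vavCre spleen, from 108, 51.5 and 77.1 to 2.46, 1.696 and 0, and to 0 in all 3 libraries of vavCre marrow.

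Markers of other cells moved with some of these groups. The summed level of 10 macrophage markers was 25340 to 37480 in Spic_WT and 15480 to 15660 in Spic_KO, and overlapped between genotypes in the vavCre comparisons. Single markers of that list did change: 2 rose and 2 fell in vavCre spleen, 4 rose and 3 fell in vavCre marrow, and 4 fell in Spic_KO. Spic, the gene named in the knockout label, is itself in that list. It counts in the sum and is among the 4 markers that fell in Spic_KO. Of 8 neutrophil markers the sum was 319.9 to 2408 in wild-type spleen and 2521 to 5506 in vavCre spleen, while in marrow it was 960 to 4188 and 1313 to 2056. The sum of 7 erythroid markers was 189000 to 281800 against 96340 to 138900 in spleen and 187300 to 277800 against 72520 to 108300 in marrow, lower in vavCre in both. The sum of 6 B cell markers was 2634 to 5929 against 1099 to 2898 in spleen and 3260 to 8774 against 1103 to 2509 in marrow. Monocyte markers summed to 752 to 845 in wild-type spleen and 309.9 to 688 in vavCre spleen, and to 712 to 1009 and 282.9 to 542 in marrow. Plasmacytoid dendritic cells are strong producers of interferon, and the sum of their 6 markers overlapped, at 1108 to 1728 in wild-type spleen and 1018 to 1914 in vavCre spleen, and at 295 to 341.8 in Spic_WT and 235.2 to 401 in Spic_KO. Of that list Cox6a2 fell, by limma, in vavCre spleen (-4.78 ± 0.46 (SE), adjusted p = 1.57e-06), vavCre marrow (-3.52 ± 0.46 (SE), adjusted p = 5.50e-05), Spic_KO (-6.51 ± 0.76 (SE), adjusted p = 3.09e-05) and CreERT2 (-3.72 ± 0.72 (SE), adjusted p = 0.0432). No other marker of the list was called in vavCre or CreERT2, and 1 other rose in Spic_KO. The CreERT2 call of Cox6a2 was lost without any 1 of the 6 adult libraries (0.0637 to 0.492). The markers named here were chosen after their values were seen. Siglech was 57.4 to 532.5 against 298 to 685 in spleen and 16.6 to 129 against 122 to 234 in marrow. Klk1 was at 0 in every wild-type and Spic_KO library of the pups. It was also at 0 in vavCre replicate 1 of spleen and in vavCre replicates 1 and 3 of marrow. T and NK cell markers were at 0 in both Spic_KO libraries. In Spic_WT they were also near 0, with 1 to 3 of 6 above 0 and sums of 1.05 to 8.09, and none was called. The part of these cells in the changes of the members was not tested, and in bulk libraries fewer cells of a type cannot be told apart from less RNA in each.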

How the data were processed

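Per the submitters' processing notes, STAR, edgeR and the build GRCm38 were used, with no version or role given, and the strand setting of the counting is not given in the sources used here. The authors deposited 2 tables of normalised signal per gene, 1 column per library and 0 columns left unused, which sum to 9.14 to 10.5 M per library in the first and 1.43 to 1.73 M in the second. Low values are whole multiples of 1 step per library, so whole reads were recovered (within 0.1 read for 97.4 to 100% and 96.5 to 100% of values up to 500 reads). Since the deposited signal is normalised, the main test was limma 3.58.1 (R 4.3.3) with a trend on log2(value + 1), after removal of genes that reached a value of 1 in fewer than 2 libraries, 1 mean per group over all libraries of a table, and Benjamini-Hochberg adjustment over all genes tested. edgeR 4.0.16 called 887, 1023 and 949 genes in vavCre spleen, vavCre marrow and Spic_KO on the recovered reads, and DESeq2 1.42.0 was run as well. Scripts were tested on simulated data. Other alternatives were no filter, a filter at 10, pseudocounts of 0.1 and 5, the compared groups alone, a replicate block and each library left out.

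Members, lists and the rule for named genes were chosen with earlier results of these data known. Values by library are given for members called in any comparison, the member with the highest mean in each role group, the 3 with the widest range within a group, and Irf7 and Isg15. Up to 4 called genes are named per pathway list and comparison, by smallest p. Symbols that name 1 gene were counted once (4 pairs). Intervals of read ratios cover only the counting error of the low group, and not that of its controls or the spread between libraries. A pathway gene that the rule would name is not reported here.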

Additional observations from a re-analysis of the deposited data

Results flagged for a closer look

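In the adult CreERT2 group, 3 of 38 members had 1 library far from the other 3, by a rule that chance meets in about 1 in 20 groups. Dhx58, an RNA helicase related to RIG-I, was 192.8 in replicate 2 and 56.79, 57.39 and 77.05 in the others. Xaf1, an antagonist of the apoptosis inhibitor XIAP, was 8.864 in replicate 2 and 80.64, 83.47 and 87.49 in the others. Replicate 2 was the shallowest library, at 0.693 M reads, and its value of Xaf1 stood for 4 reads. Eif2ak2 was 40.89 in replicate 1 and 70.91, 71.91 and 72.44 in the others.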

How the results depend on the processing

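The number of members called moved with the processing. In vavCre spleen the 7 calls ranged from 3 to 8 when each library was left out. In vavCre marrow the 3 calls became 5 with the strict filter, 5 with the compared groups alone and 6 with DESeq2, and ranged from 3 to 5 without single libraries. Between the wild-type tissues the 2 calls became 1 with no filter, 4 with the strict filter, 1 with a pseudocount of 5 and 5 with DESeq2, and ranged from 1 to 4 without single libraries. In Spic_KO the 8 calls ranged from 4 to 15. The cause of these moves was not tested. The labels give no pairing of same-numbered libraries. Deviations from the group mean were compared over the 11125 and 8176 genes of the 2 tables above a minimum mean level. They correlated at r from -0.10 to 0.09 for libraries with the same number and from -0.15 to 0.14 for those with different numbers. The mean of the members was nevertheless higher in vavCre than in the same-numbered wild type in all 6 pairs. With the replicate block the calls became 10 in vavCre spleen (Ifit2, Ifit3 and Rtp4 added, with adjusted p of 0.00131, 0.00798 and 0.00659), 6 in vavCre marrow, 4 between the wild-type tissues, 1 between the vavCre tissues (from 0) and, with the compared groups alone, 4 in Spic_KO. In CreERT2 the groups share 1 replicate number, so no paired analysis was possible there. The median change of the members kept its sign without any 1 library in vavCre spleen (0.18 to 0.86), vavCre marrow (0.20 to 0.67) and Spic_KO (-1.07 to -0.82), and changed sign between the wild-type tissues (-0.11 to 0.44). Over all genes, DESeq2 called 1290 against 835 by limma in vavCre spleen, 93 against 18 for the difference between tissues, 952 against 588 and 950 against 529 between tissues in wild type and vavCre, 1694 against 658 in Spic_KO and 130 against 24 in CreERT2, and edgeR called 31 against 18 for the difference between tissues. The CreERT2 libraries were the shallowest, with 0.693 to 1.67 M reads, and the part of depth in the lack of calls there was not tested.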
